A study of Mus musculus with 6 samples.

Results

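The ryanodine receptor genes Ryr1, Ryr2 and Ryr3 encode the channels that release calcium from the sarcoplasmic or endoplasmic reticulum. The members were all regions of the deposited table whose gene symbol is exactly one of these names, counted once for each set of coordinates. They numbered 67 of 213957 distinct regions, with 37 at Ryr1, 20 at Ryr2 and 10 at Ryr3. The libraries came from ventricles of male C57BL/6 mice at postnatal day 14 (P14, 3 libraries) and at postnatal day 1 (P1, 3 libraries), with no genetic change or treatment given in the labels. The sample labels name the left ventricle, while the protocol describes ventricles with the septum after removal of the atria. Fragments with methylated CpG sites were captured with a methyl-CpG binding domain and sequenced (MBD-seq). The method counts captured fragments and gives no methylation level per site, and it offers no marker expression against which the tissue could be checked.

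Ryanodine receptors sit in the reticulum membrane as assemblies of identical subunits and open when calcium or a voltage sensor signals that the cell should contract. RyR2 is the heart muscle form and carries the calcium release of every heartbeat, RyR1 is the skeletal muscle form, and RyR3 occurs at lower levels in brain and several muscles. Methylation of CpG sites within a gene body is common in expressed and silent genes alike, whereas CpG-dense promoters are usually unmethylated.

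The genes differ in how densely the captured peaks lie. Ryr1 (ENSMUSG00000030592) spans 121840 bp on chromosome 7 (29003340 to 29125179, RefSeq, GRCm38.p6), and its peaks covered 36.0% of that span. Ryr2 (ENSMUSG00000021313) spans 553847 bp on chromosome 13 (11553099 to 12106945), of which peaks covered 2.57%. Ryr3 (ENSMUSG00000057378) spans 586052 bp on chromosome 2 (112631354 to 113217405), of which peaks covered 1.38%. There were thus 30.4 peaks per 100 kb at Ryr1, 3.61 at Ryr2 and 1.71 at Ryr3. The median peak width was 1041 bp at Ryr1, 689.5 bp at Ryr2 and 791 bp at Ryr3, against 852 bp over all peaks. Of the 67 peaks, 66 lay wholly inside the RefSeq span of their gene and 1 at the low-coordinate end of Ryr1 lay partly inside. The table assigned 9 Ryr1 peaks to a further gene as well (6 to AC164564NA1, 2 to Mir1963 and 1 to Map4k1), so reads there cannot be given to Ryr1 alone. Whether a peak lies in an exon, an intron or a UTR was not analysed here.

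The promoter windows of Ryr1 and Ryr2 are shown because neither held a captured peak, although both hold CpG sites. Each window runs from 250 bases before to 50 bases after a RefSeq start (GRCm38.p6, minus strand, written 5′ to 3′), with every CpG in capitals. For Ryr2 this start is the high-coordinate end of the span given above. For Ryr1 it lies slightly inside the span end at 29125179, from which distances in the gene are counted. The Ryr2 window (chr13:12106896-12107195) and the Ryr1 window (chr7:29125102-29125401) read as follows.
Ryr2: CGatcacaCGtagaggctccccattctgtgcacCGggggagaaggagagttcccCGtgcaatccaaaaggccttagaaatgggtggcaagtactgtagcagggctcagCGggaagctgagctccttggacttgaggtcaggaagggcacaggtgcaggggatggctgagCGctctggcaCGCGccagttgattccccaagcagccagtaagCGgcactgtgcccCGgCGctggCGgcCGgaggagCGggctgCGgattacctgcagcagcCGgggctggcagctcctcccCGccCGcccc
Ryr1: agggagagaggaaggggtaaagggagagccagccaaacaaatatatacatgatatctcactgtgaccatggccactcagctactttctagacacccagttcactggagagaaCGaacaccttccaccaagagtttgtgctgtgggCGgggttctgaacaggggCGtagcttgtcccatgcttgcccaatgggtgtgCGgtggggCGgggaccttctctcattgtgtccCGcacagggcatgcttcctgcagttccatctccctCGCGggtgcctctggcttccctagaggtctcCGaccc

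The Ryr2 window holds 18 CpG sites, and 29.7% of 32851 RefSeq promoter windows of the same length hold as many or more. The Ryr1 window holds 9 (45.8% of windows hold as many or more). The letters searched were CG, which read the same on both strands. The Ryr2 window lies in a stretch between peaks (chromosome 13, 12103067 to 12123166). That stretch is 20100 bp wide and the window 300 bp, so reads of the stretch do not show capture in the window itself. That stretch held 129, 155 and 105 reads in P14 replicates 1 to 3 and 111, 129 and 163 reads in P1 replicates 1 to 3. Scaled for width in kb and for the reads of the library (RPKM), these are 0.298 to 0.385 at P14 and 0.298 to 0.448 at P1, and the ages overlapped. The peaks of Ryr2 together held 0.883 to 1.17 RPKM at P14 and 1.17 to 1.54 RPKM at P1. The Ryr1 window also lies in a stretch between peaks (29117007 to 29129898, 12892 bp wide). As a whole this stretch held 0.372 to 0.505 RPKM at P14 and 0.403 to 0.526 RPKM at P1. The peak nearest to the gene start ended 3879 bp inside Ryr2 and 8173 bp inside Ryr1. For Ryr3 no promoter window was used here.

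Libraries held 16284216 to 21512072 reads over all regions. Peaks took 31.3% of the reads in P14 replicate 1, beside 18.4% and 17.0% in P14 replicates 2 and 3, and 11.6% to 13.4% in the P1 libraries. P14 replicate 1 thus stood apart from the other libraries in this share. P1 replicate 1 stood apart in another way, with 2392 peaks without a read. The other P1 libraries had 30 and 37 such peaks, and the P14 libraries 2 to 125. Because the share of reads in peaks differed, each peak was compared relative to the other peaks. The unit was CPM, here reads scaled by the TMM-adjusted total of reads in peaks. Results are also given for other scalings and with single libraries left out. Peaks were tested with edgeR's quasi-likelihood test and called at an adjusted p under 0.05 over all 90169 tested peaks, of which 2.7% were lower and 0.134% higher at P14. The filter on low counts removed 5 Ryr2 peaks, 2 Ryr1 peaks and 1 Ryr3 peak, so counts over tested peaks are not counts over all members.

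At Ryr2, 8 of 15 tested peaks were lower at P14 and none was higher, against 2.7% and 0.134% of all tested peaks. The low-count filter asks for enough reads in 3 libraries, which 1 age can supply. At each of these 8 peaks the P1 libraries met it, and the P14 libraries alone would not have. Without the filter, 9 of 20 Ryr2 peaks were called lower, against 2.61% of all peaks. The deposited regions also had a floor, a mean of 10 reads per library. The median log2 change over the tested Ryr2 peaks was -1.74, beside -0.01 over all tested peaks. At Ryr1, 0 of 35 tested peaks passed in either direction with edgeR and 0 of 37 with DESeq2 (in edgeR 3 had an unadjusted p under 0.05, all higher at P14), and the median was 0.15. At Ryr3, 1 of 9 tested peaks was lower and the median was -0.08. In whole ventricle tissue, a changed share of cell types and a changed methylation within one cell type cannot be told apart.

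The Ryr2 peak with the smallest p lies on chromosome 13 from 11751799 to 11752652, with its middle 354.7 kb from the gene start. It held 9, 15 and 5 reads in P14 replicates 1 to 3, against 28, 25 and 18 reads in P1 replicates 1 to 3. On the scaled level it averaged 2.39 ± 1.44 CPM at P14 and 11.5 ± 3.10 CPM at P1 (SD, n = 3 each). Every P14 library lay under every P1 library, and the level at P1 was 4.83 times that at P14 (log2 change -2.31, SE 0.46, adjusted p = 0.0201 in edgeR's quasi-likelihood test).

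The Ryr2 peak with the most reads, from 11669952 to 11671296, held 24, 32 and 23 reads in P14 replicates 1 to 3, against 55, 36 and 36 reads in P1 replicates 1 to 3. It averaged 6.85 ± 2.98 CPM at P14 and 20.7 ± 6.95 CPM at P1 (SD, n = 3 each). The ages did not overlap in CPM, with P14 replicate 1 lowest at 3.41 CPM and P1 replicate 1 highest at 28.8 CPM (log2 change -1.68, SE 0.35, adjusted p = 0.0211, edgeR).

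Towards the gene start, the last Ryr2 peak that passed lies from 11897123 to 11897664, with its middle 209.6 kb from the start. It held 4, 9 and 7 reads in the P14 libraries, against 33, 18 and 10 in the P1 libraries. The P1 libraries spread widely there, at 17.3, 8.30 and 4.69 CPM, and all stayed above the P14 libraries at 0.57, 2.41 and 2.61 CPM (log2 change -2.57, SE 0.59, adjusted p = 0.0257, edgeR). The peak from 11822664 to 11823389 had the largest change. It held 0, 10 and 3 reads at P14, against 20, 14 and 16 at P1, with no overlap in CPM (log2 change -2.85, SE 0.73, adjusted p = 0.0382, edgeR). Single libraries moved these values. At 11897123 the log2 change was -1.94 without P1 replicate 1 and -1.97 without P14 replicate 1, and the peak passed in neither case. At 11822664 it was -2.0 without P14 replicate 1, where it did not pass, and -4.38 without P14 replicate 2. At 11751799 it was -2.92 without P14 replicate 2.

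The other Ryr2 peaks that passed start at 11553142, 11627883, 11692075 and 11810539. The first of them is the peak at the end of the gene farthest from its start, with 9, 11 and 7 reads at P14, against 16, 22 and 13 at P1. The peak at 11627883 held 16, 11 and 11 reads at P14, against 22, 16 and 24 at P1. At 11692075 there were 5, 6 and 8 reads at P14, against 22, 13 and 13 at P1. These peaks had log2 changes from -2.30 to -1.74 with adjusted p between 0.0306 and 0.0397 in edgeR's test, and in CPM no P14 library reached a P1 library in any of them. The peak at 11810539 held 9, 10 and 9 reads at P14, against 21, 14 and 18 at P1 (log2 change -1.91).

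**Figure D1:**
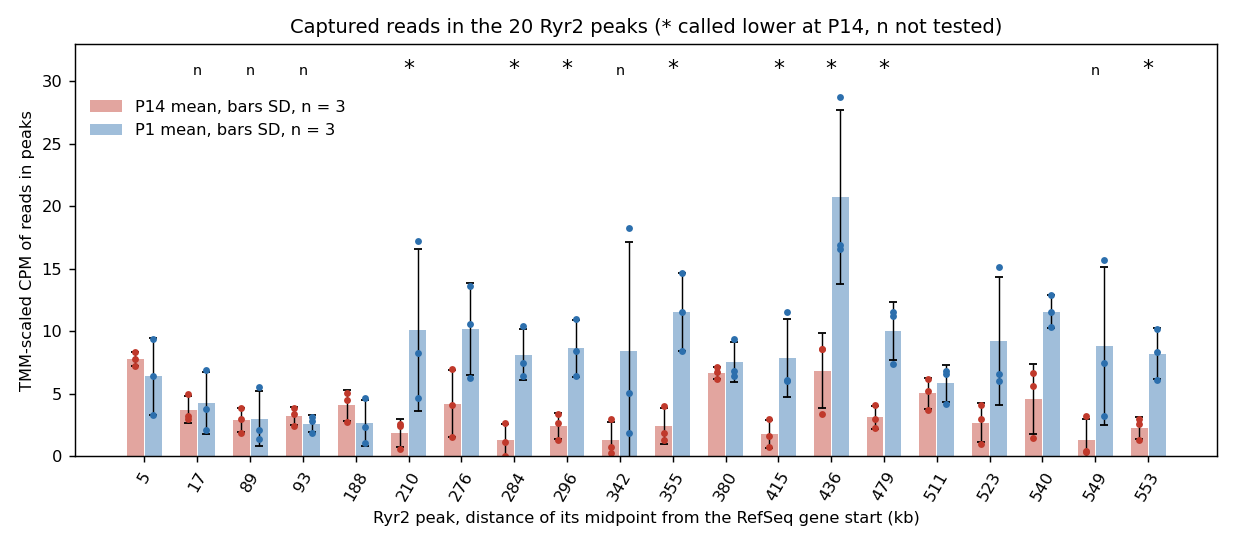
Each position is 1 of the 20 Ryr2 peaks, ordered by the distance of its midpoint from the RefSeq gene start in kb, and the y axis gives TMM-scaled CPM of reads in peaks. Bars are means of 3 libraries with SD, points are libraries, P14 stands left of P1, stars mark peaks called lower at P14 and n marks peaks not tested. Bars of the 5 peaks within 200 kb of the start are higher at P14 for 3 and lower for 2. All 15 farther peaks have lower P14 bars, with the smallest gaps at 11595280 (5.05 CPM at P14, 5.84 CPM at P1) and 11726678 (6.66 CPM at P14, 7.54 CPM at P1).

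The Ryr2 peaks fell into separate ranges of change along the gene, a split seen in the values and therefore not tested. In a fit without the low-count filter, which gives a value for all 20 peaks, 13 of the 15 peaks more than 200 kb from the gene start had a log2 change between -2.84 and -1.35. The other 2 of these 15, at 11595280 and 11726678, had -0.18 and -0.17. The 5 peaks within 200 kb of the start had changes between -0.15 and 0.55. No Ryr2 peak lay between -1.35 and -0.18.

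Summed over the 15 distant peaks, the level was 28.3, 60.3 and 54.8 CPM in P14 replicates 1 to 3, against 194.1, 121.3 and 125.2 CPM in P1 replicates 1 to 3. Summed over the 5 peaks near the start it was 22.6, 20.9 and 21.6 CPM at P14, against 17.8, 23.1 and 15.9 CPM at P1. The ages were apart in the distant sum and overlapped in the near one. Since the split was drawn from these same values, this contrast follows in part from its choice and was not tested. The near peaks were also the sparser ones at P1. Per kb of peak, their level ranged from 5.67 to 7.34 CPM at P14 and from 3.72 to 8.39 CPM at P1. The distant peaks ranged from 1.74 to 11.8 CPM per kb at P14 and from 9.14 to 18.6 CPM per kb at P1. Over all peaks the median was 8.11 CPM per kb at P14 and 8.20 CPM per kb at P1.

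The peak nearest to the Ryr2 start, from 12101785 to 12103066, held 51, 31 and 21 reads at P14, against 18, 14 and 7 at P1. Raw reads were thus higher in each P14 library, but relative to other peaks the level was 7.79 ± 0.53 CPM at P14 and 6.38 ± 3.07 CPM at P1 (SD, n = 3 each), with overlapping libraries. It did not pass (log2 change 0.29, SE 0.39, adjusted p = 1.00, edgeR), and the sign turned to -0.020 without P1 replicate 3.

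**Figure D2:**
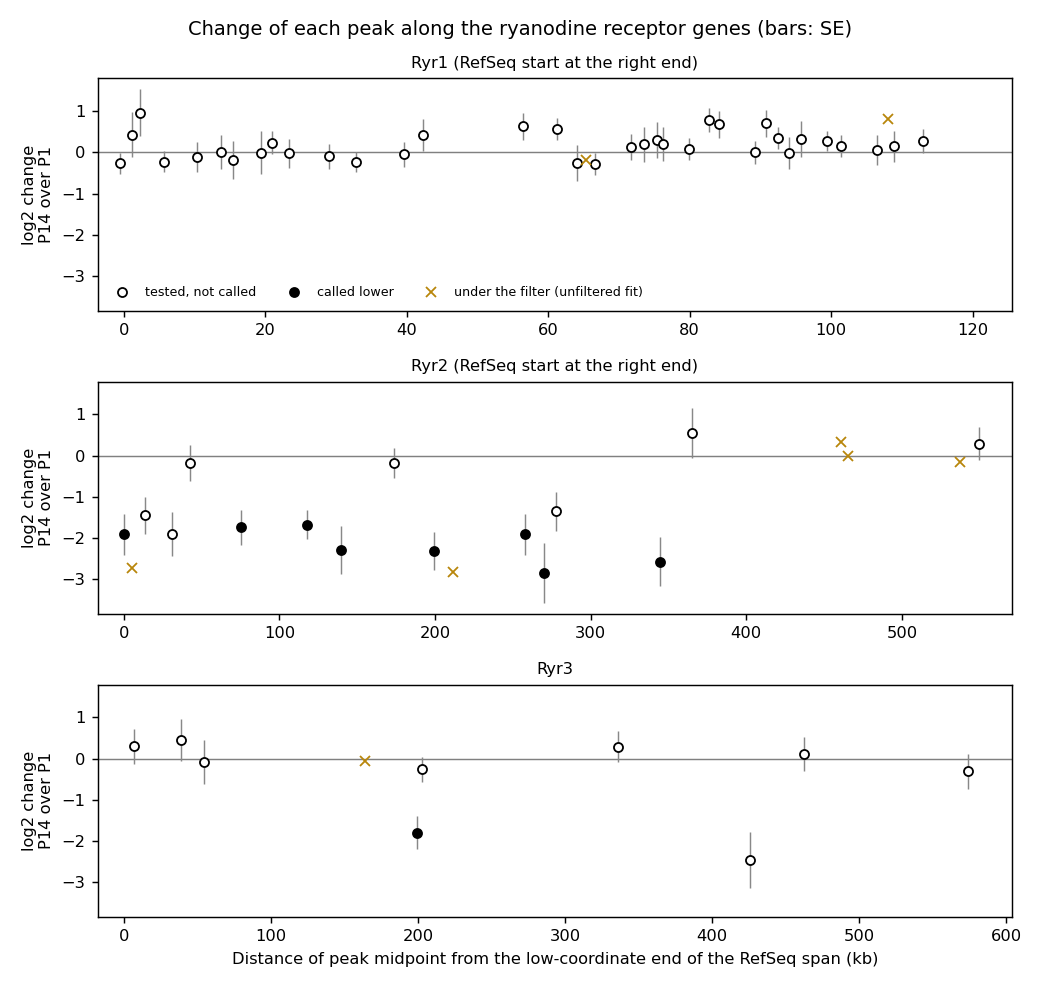
Log2 change of each peak, P14 over P1, against the distance of its midpoint from the low-coordinate end of the gene's RefSeq span in kb, with 1 panel per gene and SE bars. Filled points were called lower, open points were tested and not called, and crosses are peaks under the low-count filter with values from the unfiltered fit. Tested Ryr1 peaks stay between -0.27 and 0.97, while Ryr2 has 13 peaks at or below -1.35 at its left.

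Of all 20 Ryr2 peaks, 11 had every P14 library below every P1 library in CPM and 0 the reverse, where all peaks showed 7.16% and 4.94%. At Ryr1 the counts were 0 and 3 of 37, and at Ryr3 2 and 0 of 10. Of the 8 Ryr2 peaks that passed, P1 replicate 1 was the highest P1 library in 7. The same held in 81.7% of all peaks called lower and in 37.4% of tested peaks not called. Without P1 replicate 1, 1 of these 8 peaks still passed, the one at 11751799 (log2 change -2.10, adjusted p = 0.0392, edgeR), against 0.573% of all peaks, and all 8 kept a negative log2 change, from -2.63 to -1.37. Without P14 replicate 1 no peak of the whole table passed in edgeR, while 6185 of 90932 tested peaks had an unadjusted p under 0.05. Among them were 12 of 17 tested Ryr2 peaks, all lower. The 8 then had log2 changes of -1.25 and below. Without P1 replicate 2, 5 of 16 tested Ryr2 peaks passed (1.56% of all peaks), without P1 replicate 3, 4 of 18 (1.63%), without P14 replicate 2, 5 of 18 (1.54%), and without P14 replicate 3, 6 of 18 (1.69%). With replicate 1 of both ages left out, 0 of 15 passed (0.189% of all peaks), and the median log2 change of Ryr2 was -1.07.

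Other scalings changed the calls, while the median of the Ryr2 peaks stayed below 0. Ryr2 had 8 of 15 tested peaks called lower both among named regions alone (2.21% of them) and with the size factors of DESeq2 in edgeR (2.66% of peaks). It had 3 of 15 without TMM factors (1.13%), 9 of 20 without the low-count filter (2.61%) and 10 of 20 in the Wald test of DESeq2 (3.09%). In 1 fit over all 209063 regions, 0 regions passed by edgeR's quasi-likelihood test (0.0%), while 48109 of the 209063 had an unadjusted p under 0.05. Among these were 31 Ryr peaks, of which 12 were lower at P14, 10 of them at Ryr2, and the others higher. The median log2 change there was -1.03 over 17 Ryr2 peaks, 0.89 over 35 Ryr1 peaks and 0.64 over 10 Ryr3 peaks, and 0.12 over all regions. Scaled to the reads between peaks, which moved the median of all peaks to 1.18, the medians were -0.60 at Ryr2, 1.41 at Ryr1 and 1.09 at Ryr3. Of 16 Ryr2 peaks tested in that fit, 11 were below 0 and 0 passed, against 0.055% of all peaks called lower.

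**Figure D3:**
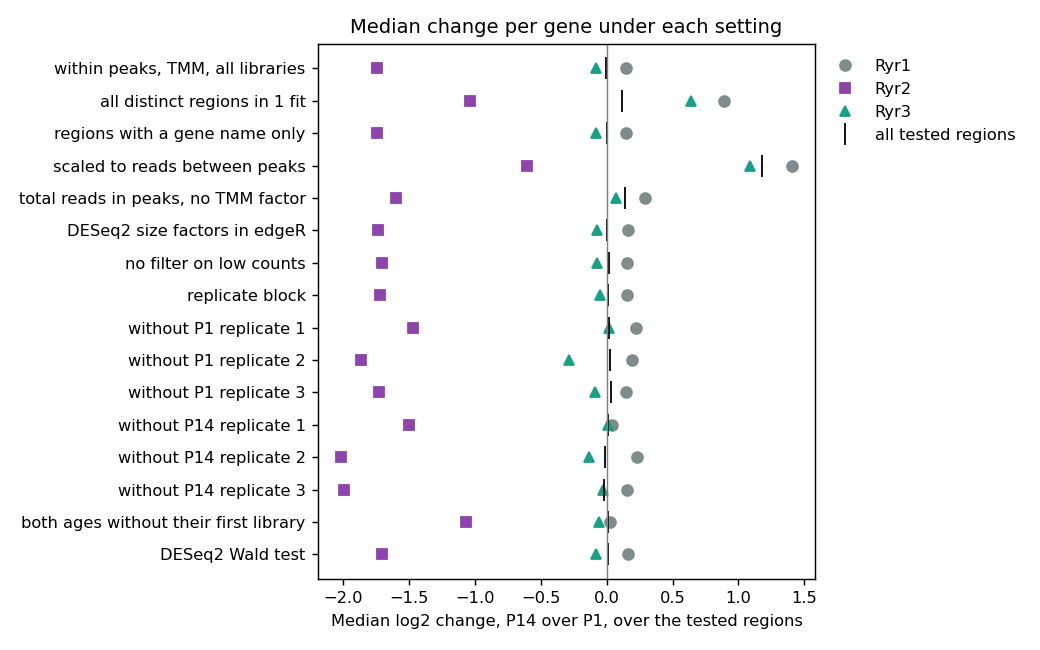
Median log2 change, P14 over P1, over the tested peaks of each gene on the x axis, with 1 row per scaling, filter, test or set of libraries and a black tick for all tested regions. Ryr2 lies below 0 and left of the black tick in every row shown. Ryr1 lies above 0 in every row, and Ryr3 lies on either side of 0.

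A comparison of each peak with its own flanking stretches needs no scaling between libraries. Over all peaks, read density in a peak relative to its flanks had a median of 3.52 at P14 and 1.95 at P1, and 43.9% of peaks had every P14 library above every P1 library, against 1.93% with the reverse. Of the 20 Ryr2 peaks, 4 showed the reverse and 4 were higher at P14. At the peak from 11822664, P14 libraries had 0, 1.59 and 0.61 times the density of the flanks, against 2.89, 2.18 and 2.73 times in P1 libraries. At the peak from 11751799 these ratios were 0.89, 1.70 and 0.73 at P14, against 2.26, 2.56 and 1.73 at P1. P14 replicates 1 and 3 thus held fewer reads per base in these peaks than beside them. Not every called Ryr2 peak was lower in this measure. At the peaks from 11627883, 11669952, 11692075 and 11897123 the ratios overlapped between ages. The mean ratio at 11669952 was 4.199 at P14 and 4.118 at P1, and at 11627883 it was 2.474 at P14 and 2.499 at P1. At 11692075 and 11897123 the mean ratio was lower at P14. By the same split drawn from the values, the 15 distant peaks had a median ratio of 2.13 at P14 and 3.16 at P1. The 5 near the start had 4.52 at P14 and 1.70 at P1. The median ratio near the start was higher at P14, as it was over all peaks.

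**Figure D4:**
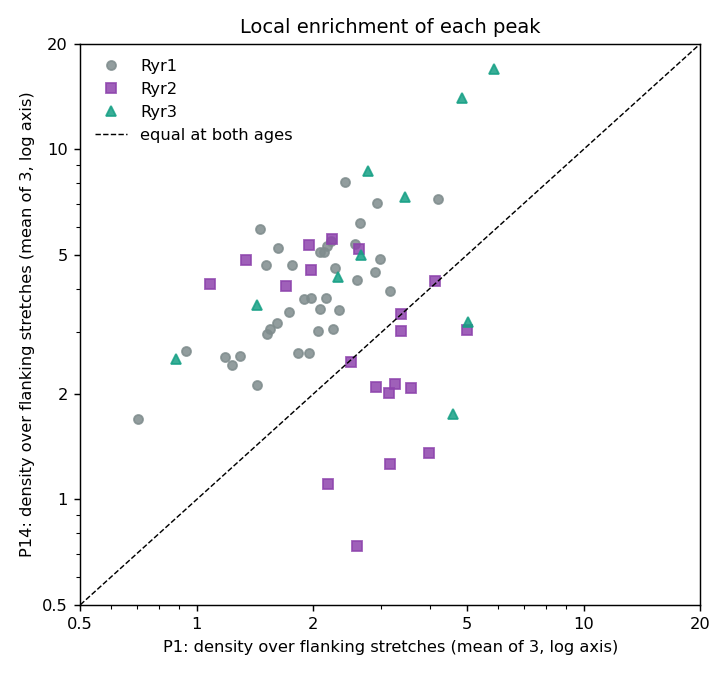
Each point is 1 peak, with its read density relative to its flanking stretches at P14 on the y axis and at P1 on the x axis (means of 3 libraries, both axes logarithmic) and a dashed line where the ages are equal. Ryr1 points lie above the line, as do the Ryr2 peaks near the gene start, and the points below it are peaks of Ryr2 and Ryr3.

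The stretches between peaks were also sparser at P14 in Ryr2. From the far end to the middle of the gene they held 0.371 ± 0.0487 RPKM at P14 and 0.536 ± 0.0117 RPKM at P1 (SD, n = 3 each), or 69.2% of the P1 density. From the middle to the gene start they held 80.0% of the P1 density, in Ryr3 84.7% and in Ryr1 118%, against 89.0% over all stretches of the genome. These densities were not part of a test. Taken over the whole gene, peak density relative to the stretches between the first and last Ryr2 peak was 3.06 ± 0.778 at P14 and 2.82 ± 0.400 at P1 (exact permutation test, two-sided, p = 0.7, n = 3 each). It was 3.63 ± 1.54 at P14 and 1.95 ± 0.239 at P1 for Ryr1, and 6.18 ± 3.12 at P14 and 3.25 ± 0.430 at P1 for Ryr3 (exact permutation p = 0.1 for both, SD, n = 3 each). The adjusted p over the 3 genes was 0.15 for Ryr1 and Ryr3 and 0.7 for Ryr2. These tests compare each gene with itself and hold no genome background. Over all peaks, the density of a peak relative to its flanks had a median of 3.52 at P14 and 1.95 at P1. A higher ratio at P14 was thus general and not particular to Ryr1 or Ryr3. P14 replicate 1 had the highest ratio for all 3 genes. Without it the difference was 0.803 for Ryr1 (1.67 with it) and 1.16 for Ryr3 (2.93 with it), and it turned to -0.196 for Ryr2 (0.245 with it). With 3 libraries against 3, a two-sided p of 0.1 is the smallest possible.

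The difference between members was tested on the ratio of their summed reads within each library. Ryr2 peaks held 0.920, 1.24 and 1.17 times the reads of Ryr3 peaks in P14 replicates 1 to 3, against 2.11, 2.19 and 1.92 times in P1 replicates 1 to 3. No P14 library reached a P1 library, and the ratio at P1 was 1.88 times that at P14 (geometric means, log2 difference -0.91, exact permutation p = 0.1). Relative to Ryr1, Ryr2 peaks held 0.102, 0.215 and 0.197 times the reads at P14, against 0.532, 0.377 and 0.390 times at P1. This ratio was 2.63 times as high at P1 (log2 difference -1.39, exact permutation p = 0.1, adjusted p over the 2 ratios 0.1 for each). Over peaks with a mean of at least 20 reads the log2 difference was -0.32 for Ryr2 to Ryr3 (exact permutation p = 0.4) and -0.98 for Ryr2 to Ryr1 (exact permutation p = 0.1).

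As a share of the reads in all peaks, Ryr2 peaks held 0.00532%, 0.00822% and 0.00741% in P14 replicates 1 to 3, against 0.0189%, 0.0133% and 0.0132% in P1 replicates 1 to 3. The P14 mean of 0.00698% ± 0.00150 was below the P1 mean of 0.0151% ± 0.00324 (SD, n = 3 each, exact permutation p = 0.1, adjusted p over the 3 genes 0.15). As a share of all reads, of which peaks took more at P14, the difference was -0.000400 percentage points (exact permutation p = 0.2). Ryr1 peaks held 0.0427% ± 0.00826 at P14 and 0.0349% ± 0.000890 at P1 (SD, n = 3 each, exact permutation p = 0.1, adjusted p = 0.15). P14 replicate 1 was highest there at 0.0522%, beside 0.0382% and 0.0377%, and the difference was 0.00781 percentage points with it and 0.00304 without it. Ryr3 peaks held 0.00624% ± 0.000430 at P14 and 0.00731% ± 0.00148 at P1 with overlapping libraries (exact permutation p = 0.3, n = 3 each).

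**Figure D5:**
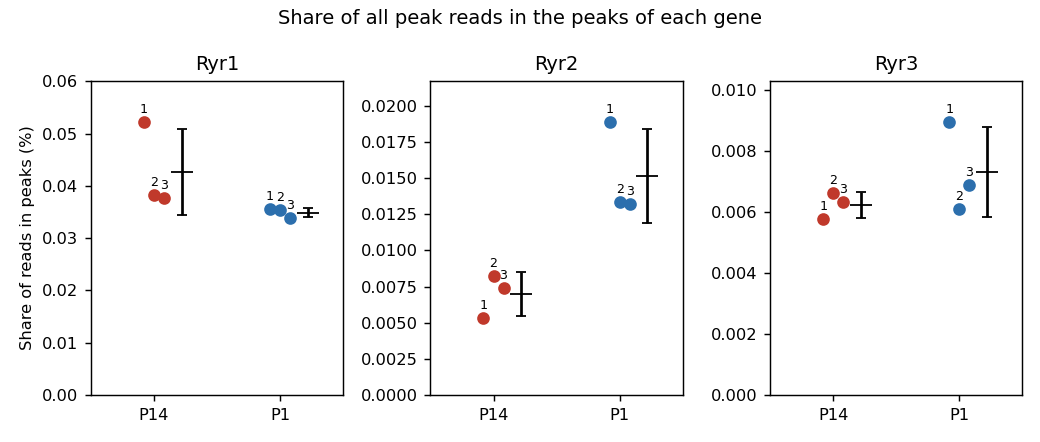
Share of all reads in peaks that fell in the peaks of each gene, in percent, with 1 point per library labelled by its replicate number and the mean with SD beside the points. The 3 P14 libraries lie below the 3 P1 libraries at Ryr2 and above them at Ryr1, and the ages overlap at Ryr3.

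At Ryr1, the gene of the skeletal muscle channel, 23 of 35 tested peaks had a log2 change above 0 and 12 below, within a range of -0.27 to 0.97. Over all tested peaks 50.8% were below 0. With replicate 1 of both ages left out, 16 of 35 Ryr1 peaks were below 0 and their median was 0.02. The peak with the smallest p and the most reads, from 29085303 to 29086736, is also assigned to Mir1963. It held 228, 85 and 73 reads at P14, against 34, 47 and 18 at P1. Its level was 27.5 ± 4.82 CPM at P14 and 15.97 ± 6.80 CPM at P1 (SD, n = 3 each), without overlap, and it did not pass (log2 change 0.79, SE 0.29, adjusted p = 0.218, edgeR).

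The peak from 29093603 to 29094541 held 63, 48 and 27 reads at P14, against 15, 14 and 11 at P1, and had 10.6 ± 2.01 CPM at P14 and 6.49 ± 1.34 CPM at P1. Its libraries did not overlap either, and it did not pass (log2 change 0.70, SE 0.34, adjusted p = 0.643, edgeR). The peak from 29087017 to 29088057 held 113, 43 and 26 reads at P14, against 19, 17 and 13 at P1, and overlapped in CPM (log2 change 0.68, SE 0.32, adjusted p = 0.606, edgeR). Scaled to the reads between peaks, 6 of 35 Ryr1 peaks passed, all higher at P14 and these 3 among them, where 7.79% of all peaks did so. Relative to their flanks, 17 of 37 Ryr1 peaks were higher at P14 without overlap, which is near the 43.9% of all peaks.

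The Ryr1 peak nearest to the gene start, from 29115758 to 29117006, held 136, 41 and 31 reads at P14, against 25, 25 and 23 at P1. In CPM the ages overlapped, at 14.0 ± 4.66 at P14 and 11.8 ± 1.17 at P1 (SD, n = 3 each, log2 change 0.28, SE 0.29, adjusted p = 1.00, edgeR). Without P14 replicate 1 its sign turned, to -0.056.

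Ryr3, the third channel gene, held 2 peaks with a log2 change below -1 and 8 between -0.30 and 0.47 in the fit without the filter. The peak from 112830216 to 112831334 held 25, 21 and 15 reads at P14, against 56, 21 and 24 at P1. It averaged 4.92 ± 1.19 CPM at P14 and 16.7 ± 10.9 CPM at P1 (SD, n = 3 each) without overlap, and passed (log2 change -1.80, SE 0.40, adjusted p = 0.0237, edgeR). P1 replicate 1 was far above the other P1 libraries there, at 29.3 CPM beside 9.68 and 11.2 CPM, and without it the peak did not pass (log2 change -1.12, adjusted p = 0.162, edgeR). It did not pass without P14 replicate 1 either (log2 change -1.54, adjusted p = 0.186, edgeR).

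The Ryr3 peak from 113057077 to 113057697 held 2, 6 and 9 reads at P14, against 28, 12 and 10 at P1, without overlap in CPM (log2 change -2.46, SE 0.68, adjusted p = 0.0526, edgeR). Its log2 change was -1.77 without P1 replicate 1 (adjusted p = 0.438, edgeR) and -1.74 without P14 replicate 1 (adjusted p = 0.298, edgeR). It passed in the Wald test of DESeq2 (adjusted p = 0.0329) and in edgeR without P14 replicate 3 (log2 change -3.27, adjusted p = 0.0470). The peak next to the one that passed, from 112833407 to 112834579, had the most reads of Ryr3. It held 130, 54 and 27 reads at P14, against 47, 36 and 26 at P1, and its CPM overlapped (log2 change -0.26, SE 0.29, adjusted p = 1.00, edgeR). The sign of that change turned to 0.064 without P1 replicate 1 and to 0.51 in the fit over all regions. Neighbouring Ryr3 peaks thus differed in their change, although the difference between them was not tested. The outermost Ryr3 peaks overlapped between ages. The one from 112637772 held 32, 25 and 21 reads at P14, against 12, 9 and 10 at P1 (log2 change 0.30), and the one from 113204766 held 31, 24 and 17 at P14, against 13, 8 and 22 at P1 (log2 change -0.30). The peak from 112669794 to 112670868 had 0.46, with 25, 29 and 17 reads at P14, against 3, 11 and 12 at P1.

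Other genes of calcium release were described from a list of 35 genes, of which 26 had a tested peak. Of their 231 tested peaks 8 were lower at P14 (3.46%) and 0 higher, with a median log2 change of 0.04, so the share was close to the 2.7% of all tested peaks. The 8 lay at 6 genes. They were Itpr1, an inositol trisphosphate receptor and relative of the ryanodine receptors, Sri, the channel-binding protein sorcin, and Atp2a2, the calcium pump that refills the reticulum. The others were Slc8a1, the sodium-calcium exchanger of the cell surface, Jph1, a junctophilin that holds the reticulum near the surface membrane, and Homer2, a scaffold protein.

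The Sri peak (chromosome 5, 8059824 to 8060539) held 4, 7 and 6 reads at P14, against 26, 18 and 12 at P1 (log2 change -2.69, SE 0.57, adjusted p = 0.0220, edgeR). The Slc8a1 peak (chromosome 17, 81615004 to 81615935) held 18, 18 and 11 reads at P14, against 23, 33 and 18 at P1 (log2 change -1.68, SE 0.39). In CPM the ages were apart at these and at the lead peaks of the other 4 genes, with P14 lower, as at 7.16% of all peaks. The lead peaks were chosen by their small p, so this follows in large part from the choice. Atp2a2 had 2 of its 3 tested peaks lower. Its lead peak (chromosome 5, 122455642 to 122456400) held 9, 13 and 4 reads at P14, against 18, 21 and 19 at P1 (log2 change -2.19). The Homer2 peak (chromosome 7, 81667249 to 81667982) held 2, 11 and 5 reads at P14, against 22, 18 and 10 at P1 (log2 change -2.40). At Itpr1 and Jph1 a single library, P1 replicate 1, stood above the rest. Itpr1 (chromosome 6, 108230806 to 108232294, the lead of 2 lower peaks among 26) held 19, 23 and 12 reads at P14, against 67, 18 and 28 at P1, and its log2 change of -2.12 moved to -1.31 once that library was left out. Jph1 (chromosome 1, 16996878 to 16997594) held 17, 12 and 8 reads at P14, against 44, 14 and 11 at P1, and its log2 change of -2.0 moved to -1.01. Neither passed without P1 replicate 1, and nor did Sri (adjusted p = 0.0806, edgeR) or Homer2 (adjusted p = 0.175, edgeR). Without P14 replicate 1 none of the 6 lead peaks passed in edgeR. The log2 change at Homer2 was then -1.70, and it was -3.24 without P14 replicate 2. Leaving out P1 replicate 2, P1 replicate 3 or P14 replicate 3 also ended the calls at Atp2a2 and Homer2, P1 replicate 2 or P14 replicate 3 that at Slc8a1, and P14 replicate 2 or P14 replicate 3 that at Jph1. Of the direct partners of the channel, Casq2 and Trdn, the calsequestrin and triadin of the release complex, had 2 tested peaks and 1, none of which passed. Cacna1c, the calcium channel that triggers release, had 14 tested peaks and none that passed.

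Among the 1501 genes with at least 10 tested peaks, 1 had a larger share of its tested peaks called lower than Ryr2 at 53.3%. In the same ranking, which counts only peaks past the filter, 2 had a lower median log2 change. The median share over these genes was 0%. The 8 called Ryr2 peaks met the filter through the P1 libraries, where they are high, so share and rank follow in part from the filter. Without the filter the Ryr2 share was 45%. It was 5.88% without P1 replicate 1 and 0% without P14 replicate 1, where no peak of any gene passed. The ranking uses the fit with all 6 libraries. Genes were also ranked by how closely their summed CPM followed that of Ryr2 over the 6 libraries, as a description. The closest were Nln (Pearson r = 0.999), Gpc6 (0.994), AL731663NA2 (0.994), D18Ertd653e (0.988) and Samd4 (0.987), among 1500 candidate genes. Gpc6, which encodes a glypican of the cell surface, had 218.8, 262.5 and 270.4 CPM in P14 replicates 1 to 3, against 369.8, 325.6 and 330.5 in P1 replicates 1 to 3, with 6 of its 36 tested peaks lower. Nln, the gene of the peptidase neurolysin, had 70.2, 81.2 and 79.7 CPM at P14, against 103.6, 93.6 and 94.7 at P1, with 0 of 10 passing. P14 replicate 1 was lowest and P1 replicate 1 highest in each of these 2 genes, as in Ryr2, which follows in part from the ranking by correlation.

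Closest to Ryr1 were Prdm11 (r = 0.988), Myo15 (0.988), Fer1l4 (0.983), Nrxn2 (0.982) and Fam65c (0.975), each over 6 libraries. In all 5, P14 replicate 1 was the highest library, as it was for Ryr1, and none had a called peak. Closest to Ryr3 were Gpd2 (0.992), Ankrd27 (0.981), 1700007G11Rik (0.980), Fam155a (0.973) and Myst4 (0.971). P1 replicate 1 was the highest library in all 5, as in Ryr3. Genes were picked by this correlation, so sharing the highest library with Ryr1 or Ryr3 follows in part from the choice. The libraries share their depth and their degree of enrichment over all genes, so the correlations describe these libraries and are given without a p.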

How the data were processed

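MBD-seq libraries of 3 P14 and 3 P1 ventricles, biological replicates per the labels, were compared. The authors deposited read counts as whole numbers for each region, without scaling. BWA, MACS, bedtools, edgeR 3.2.4, GRCm38 and mm10 appear in the submitters' processing notes, without roles. The peak settings and the treatment of duplicates were not stated in the sources used. Repeat lines were dropped (7567 of 221524). Peaks (101255) were told from the stretches between them (112666) by shared borders, gene names and density, an inference that rested on density alone for 17551 regions. Starts are counted from 1.

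Counts were tested with edgeR 4.0.16 (R 4.3.3), using its default filter, TMM factors, an age term and Benjamini-Hochberg adjusted p-values. The SE is the log2 change over the square root of F. On simulated data for this comparison over 90169 peaks, 22 of 100 peaks with 2-fold and 81 of 100 with 4-fold changes were recovered, and 4 of 107 calls were false. In the simulation no single library deviated from its age, as P14 replicate 1 and P1 replicate 1 did in the real data. Its share of false calls therefore cannot be carried over to the calls given here. DESeq2 1.42.0 was an alternative, beside other scalings, backgrounds, filters, a block and left-out libraries. Exact permutation tests were two-sided (scipy 1.17.1). No libraries of an age agreed within sampling noise. Same-numbered libraries did not deviate together (correlations -0.05, -0.04 and 0.02). Members, gene list and tests were chosen with earlier results of these data known. Peaks named by rule were those past the threshold, the 3 of smallest p, that with most reads and that nearest the gene start (both outer peaks for Ryr3, whose strand the tables used do not give), and list genes with a called peak. Other named peaks and genes, and the split along Ryr2, were chosen after their values were seen. Spans and promoter windows come from RefSeq (GRCm38.p6).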

Additional observations from a re-analysis of the deposited data

How the results depend on the processing

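Among Ryr peaks 9 were called lower (8 of 15 tested at Ryr2, 1 of 9 at Ryr3, 0 of 35 at Ryr1) and 0 higher. Among all 90169 tested peaks these counts were 2432 (2.7%) and 121 (0.134%). In the calcium release list they were 8 of 231 (3.46%) and 0. In the fit over all regions all of these counts were 0. With the replicate block they were also 0 in edgeR. There, 6543 of 90169 tested peaks had an unadjusted p under 0.05, 13 of them lower Ryr peaks. Libraries of the same replicate number showed no joint deviation (correlations -0.05 to 0.02), which cannot exclude a pairing with little effect on the peaks. The block gave the shares an exact sign-flip p of 0.25 for Ryr1 and Ryr2 and 0.5 for Ryr3. Scaled to reads between peaks, 0 Ryr peaks were lower and 6 higher, all among the 35 tested at Ryr1 (17.1% of these). Of all tested peaks 53 were lower (0.055%) and 7507 higher (7.79%). The list, with 264 peaks before the filter, had 0 lower and 28 higher. Without TMM factors 4 Ryr peaks (3 of 15 tested at Ryr2, 1 of 9 at Ryr3), 1023 of all peaks (1.13%) and 3 in the list were lower. With replicate 1 of both ages left out these were 0, 173 (0.189%) and 0, and 24 of all peaks were higher. Among named regions alone 1357 were lower (2.21%), and the DESeq2 test called 13 in the list lower, beside 3.09% of all peaks. With single libraries left out, the counts ranged from 0 to 8 lower Ryr peaks, 0 to 1605 lower and 0 to 100 higher among all peaks, and 0 to 8 lower in the list, each 0 without P14 replicate 1. The causes were not tested.

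The Ryr3 share differed by -0.00107 percentage points of peak reads but by 0.000460 of all reads. The Ryr2 density ratio differed by 0.245, and by -0.196 to 0.537 with single libraries left out. The log2 change at the Ryr3 peak 112833407 turned to 0.51 over all regions and 1.03 scaled to reads between peaks, and ranged from -0.50 to 0.064 with single libraries left out. At 113204766 it turned to 0.39 and 0.82 and ranged from -0.61 to 0.11. At the Ryr2 peak 12101785 it ranged from -0.020 to 0.69, and at the Ryr1 peak 29115758 from -0.056 to 0.43. The 8 Ryr2 peaks called lower kept a negative log2 change in each alternative that tested them. They were picked as lower in these same libraries, so a kept sign is no independent support. None of them passed in the fit over all regions, scaled to reads between peaks or with the replicate block. The same held without P14 replicate 1 and without replicate 1 of both ages. Low depth limits these values, since the Ryr2 peaks held 0 to 55 reads per library.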
